A study of Mus musculus with 6 samples.

Results

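The genes of COPII, COPI and Golgi transport were followed in 10T1/2 cells, an embryonic fibroblast line of the mouse from which muscle, fat and cartilage cells can be derived in culture. They comprise 38 genes of the vesicle coats, the Arf and Rab switches, the fusion proteins, the cargo receptors and the Golgi matrix, out of 18194 genes measured in the series. A probe set, a group of short probes against 1 transcript, was counted for a gene when the platform annotation gave it that gene and no other. All 38 genes had such a probe set, with 63 on the MOE430A array and 20 on the MOE430B array. Of these genes, 24 were measured on MOE430A alone, 3 on MOE430B alone (Golgb1, Sec24a and Tmed2) and 11 on both.

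The study held 1 group, untreated cells of the line grown in DMEM with 10% serum and collected at 80% confluency, as 3 samples numbered 1, 4 and 5. Each sample was run on 1 array of each design. Per the labels, the 3 best samples were chosen for the arrays, and the profile was meant to be subtracted from those of stem cells. Whether the 3 came from separate cultures is not stated, so their spread may be technical. With 1 group and 1 array per sample and design no difference could be tested, so all values below describe these samples. The labels give no passage number and no clone.

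Proteins that a cell secretes or places in its membranes leave the endoplasmic reticulum in vesicles with a COPII coat, pass through the Golgi stack and are sent on from its far side. COPI vesicles carry escaped endoplasmic reticulum proteins and Golgi enzymes back. Fibroblasts send collagens and other large matrix proteins through this route, and COPII carriers are needed for collagen to leave the endoplasmic reticulum.

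Most of this machinery was expressed. The signal, an intensity on a linear scale in arbitrary units, was set against a limit on each array, the 95th percentile of probe sets of genes restricted to distant tissues. A probe set was called detected when it lay above the limit on 3 of 3 arrays of its design, and a gene when at least 1 of its probe sets was. Of the 38 genes, 31 were detected (81.6%), against 33.5% of all 18194 genes. Of the probe sets on MOE430A, 41 of 63 were detected (65.1%), against 22.8% of all. On MOE430B 8 of 20 were (40%), against 24% of all. The MOE430A limits were 1322, 1370 and 965 in samples 1, 4 and 5, and the MOE430B limits were 2054, 1268 and 1498. The MOE430B limit rests on 12 probe sets and that of MOE430A on 146.

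By role, 8 of 10 COPII genes, 8 of 8 COPI genes, 3 of 4 Arf genes, 3 of 3 Rab genes, 2 of 3 SNARE genes, 4 of 6 cargo receptor genes and 3 of 4 Golgi matrix genes were detected. The genes not detected were Sec24a, Sec24b, Arf5, Bet1, Kdelr3, Tmed2 and Golga4. A gene not detected was not shown to be absent, since the probes of a set can bind poorly.

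The marker genes fitted the label of fibroblast. Of the fibroblast markers 9 of 10 were detected, against 33.5% of all genes, with Thy1 as the exception. Endothelial and skeletal muscle markers were detected in 0 of 5 genes each. Pecam1 and Cdh5 were above the limit on no array, and Kdr in sample 1 alone, with 1491. Of 6 epithelial markers Epcam alone was detected, by a MOE430B probe set that can match several transcripts. It read 31382, 139544 and 29693 in samples 1, 4 and 5. Cdh1 was above the limit on no array, and Krt8 in sample 5 alone, with 967 by 1 probe set. Of 5 leukocyte markers Cd14 alone was detected, and Ptprc was above the limit on no array. The summed MOE430A signal in samples 1, 4 and 5 was 2047, 1615 and 2268 for the epithelial list, 3494, 2255 and 1549 for the endothelial, 2880, 3228 and 4662 for the leukocyte and 2714, 2531 and 1598 for the muscle list, against 492018, 575152 and 261005 for the fibroblast list. The ratio of 3' to 5' signal of Gapdh on MOE430A was 24.7, 15.0 and 10.6 in samples 1, 4 and 5, and that of beta-actin 17.5, 9.57 and 8.68. These high ratios are a sign of RNA read mostly from its 3' end, most so in sample 1. The MOE430A array of sample 5 alone was processed on fluidics station 2. The part of these differences in the values below was not tested.

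**Figure D1:**
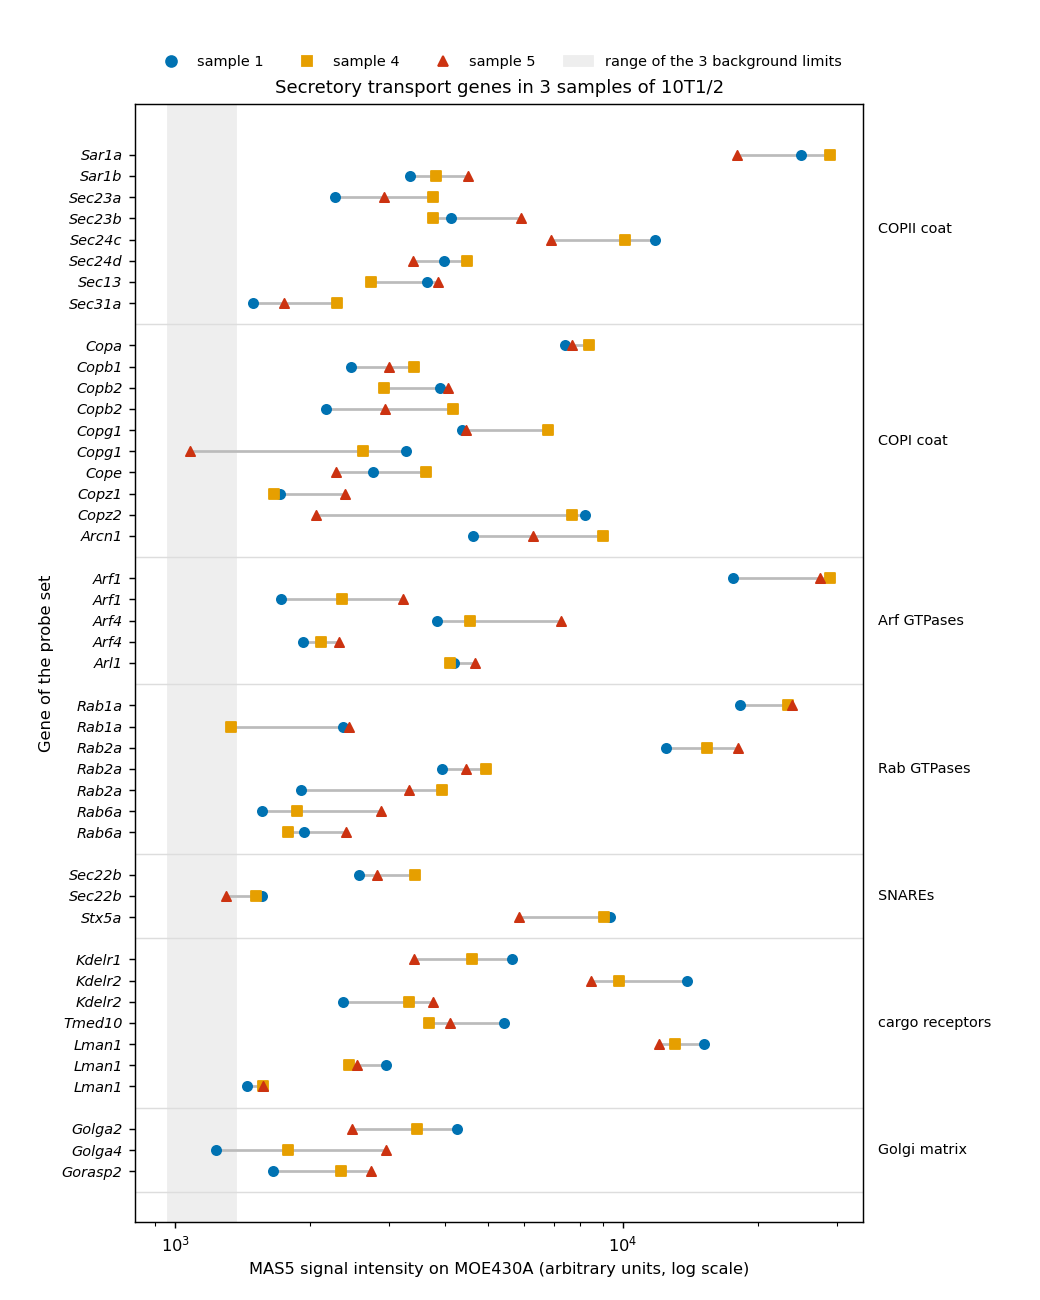
Signal on MOE430A (arbitrary units, log axis) of the 43 probe sets of 31 transport genes whose mean log2 signal lay above the mean limit, 1 point per sample, grouped by role. The grey band spans the 3 background limits and the lines join the lowest and the highest sample. Most lines are short, and those of Copz2 and of 1 Copg1 probe set are long, with sample 5 at the low end.

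The promoters of these genes are shown for the letters they share. RefSeq windows of 250 bases before to 50 after the start on GRCm38.p6 were matched by symbol for 31 of the 38 genes. Arcn1, Golga4, Golgb1, Kdelr2, Lman1, Rab2a and Tmed2 had no entry. The 7 letters ACGTGGC were searched on both strands. They are the core of the Golgi apparatus stress response element, described in human cells as a binding sequence of the transcription factor TFE3. At least 1 window held them in 12 of the 31 genes (38.7%), against 15 of 89 further genes of the pathway (16.9%), 1 of 9 genes of secreted matrix proteins (11.1%) and 796 of all 26994 genes (2.95%). Among genes with a window of at least 10 CpG, as all 31 had, the letters were present in the same 12 of 31 (38.7%), against 594 of all 12366 such genes (4.80%).

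The 12 genes held 13 such stretches, 6 on the strand of the gene and 7 on the other. They are printed 5' to 3' with 10 bases on each side, or fewer where the window ends, and the capitals mark the 7 letters.
Arf1, chr11:59228228-59228254, minus strand: gcaggcgctgACGTGGCtgccgtcagc
Arf5, chr6:28423523-28423549, minus strand: gcccgacgtcACGTGGCcccgcccctc
Copg1, chr6:87887933-87887959, plus strand: gctcagggcgACGTGGCgggcgggagt
Copz2, chr11:96849905-96849925, minus strand: gcggACGTGGCcaggcctccg
Kdelr3, chr15:79516367-79516393, minus strand: ccgcgcggtgACGTGGCggggcggcca
Sar1a, chr10:61680117-61680143, minus strand: gcggggtaagACGTGGCagcgtctgtc
Sec13, chr6:113740668-113740694, plus strand: acggcctcggACGTGGCagctcaaaac
Sec23a, chr12:59011993-59012019, minus strand: ctcccctttgACGTGGCagaggcggca
Sec24c, chr14:20674236-20674262, plus strand: cctaaggccgACGTGGCagaaggagtg
Sec24d, chr3:123267462-123267488, plus strand: cgggcgcctgACGTGGCactagcaacc
Sec31a, chr5:100416206-100416232, plus strand: ctccgctccaACGTGGCagccgcagcc
Stx5a, chr19:8741422-8741448, minus strand: taactcggtgACGTGGCtgctgcgcca
Stx5a, chr19:8741455-8741473, plus strand: cgtctaggtgACGTGGCgg

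By role, the letters were present in 6 of 10 COPII genes, 2 of 7 COPI genes, 2 of 4 Arf genes, 1 of 3 SNARE genes, 1 of 3 cargo receptor genes, 0 of 2 Rab genes and 0 of 2 Golgi matrix genes in the table. Their first base lay from 158 bases before the start (Sar1a) to base 41 after it (Stx5a). Among the other motifs searched on both strands, GGGCGG, the letters bound by Sp1, was found in 80.6% of the 31 genes, 67.4% of the further pathway genes and 38.2% of all genes. The letters CCAAT were found in 35.5% of the 31 genes and 41.0% of all, and TATAAA in 3.23% and 15.7%. A further motif, the endoplasmic reticulum stress element of CCAAT followed after 9 bases by CCACG, was found in 0 of the 35 windows of these genes and in 39 of all 32817 (0.119%). It contains CCAAT, its CCACG lies within the reverse complement of ACGTGGC, and no other of these motifs contains another. A match is a description of the window and not a measured site. The windows of the 31 genes were rich in CpG, with a median of 21 in a window against 7 over all windows.

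Both genes of the zeta subunit of COPI are printed whole, because Copz2 varied most between the samples and Copz1 did not share its pattern, as given further on. The capitals mark the motifs named above, on either strand.
Copz2, chr11:96849626-96849925, plus strand: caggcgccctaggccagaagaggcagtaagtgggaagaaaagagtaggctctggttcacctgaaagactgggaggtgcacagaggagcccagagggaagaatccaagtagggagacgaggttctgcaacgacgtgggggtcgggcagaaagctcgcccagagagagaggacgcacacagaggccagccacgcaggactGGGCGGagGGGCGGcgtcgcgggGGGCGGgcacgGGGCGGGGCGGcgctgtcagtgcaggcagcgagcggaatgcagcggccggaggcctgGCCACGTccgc
Copz1, chr15:103272638-103272937, plus strand: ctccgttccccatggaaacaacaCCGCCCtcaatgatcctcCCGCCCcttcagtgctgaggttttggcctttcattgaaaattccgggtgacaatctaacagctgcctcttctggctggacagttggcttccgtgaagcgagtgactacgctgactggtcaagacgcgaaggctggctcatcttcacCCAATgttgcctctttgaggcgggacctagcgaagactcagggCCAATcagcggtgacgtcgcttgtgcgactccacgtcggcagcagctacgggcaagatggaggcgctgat
The Copz2 window held GGGCGG 5 times and ACGTGGC once, on the other strand, whereas Copz1 held GGGCGG and CCAAT 2 times each.

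Among the COPII genes, 8 of 10 were above the limit on 3 of 3 arrays and all 8 varied less than 2-fold between the samples, by 1.32-fold to 1.70-fold. Sar1a, the GTPase that starts the coat, read 24977, 28969 and 17969 in samples 1, 4 and 5, lowest in sample 5. Its paralogue Sar1b read 3335, 3824 and 4498, with sample 5 highest and sample 1 lowest. By these probe sets the paralogues ordered sample 5 in opposite ways. A second Sar1a probe set read 396, 1058 and 1189, above the limit in sample 5 alone. It was highest in sample 5 and lowest in sample 1, as Sar1b was.

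Sec23a and Sec23b encode the part of the inner coat that stimulates Sar1. Sec23a read 2273, 3767 and 2927, highest in sample 4. Sec23b read 4134, 3760 and 5916, highest in sample 5. The genes of the outer coat, Sec13 and Sec31a, were detected with means of 3414 ± 601 and 1845 ± 410 (SD, n = 3). Sec31a read 1491, 2295 and 1750, highest in sample 4.

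Sec24 is the coat subunit that binds cargo, with 4 genes in mammals. Sec24c read 11757, 10089 and 6904 and was lowest in sample 5. Sec24d read 3983, 4479 and 3399, likewise lowest in sample 5. Sec24a, measured on MOE430B alone, had 1 probe set above the limit on 2 of 3 arrays with 323, 1583 and 1748, and sample 1 was far below. Sec24b read 33.9, 324 and 410 by its brighter probe set and was under the limit on every array. A second Sec24c probe set, on MOE430B, read 136, 713 and 139 and was also under the limit on each array.

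All 8 COPI genes were detected. Copa, the alpha subunit, read 7409, 8374 and 7674 on MOE430A. That is 1.13-fold from lowest to highest, the smallest range among the COPI probe sets above the mean limit. Copb1, the beta subunit, read 2467, 3405 and 2997. Cope, the epsilon subunit, read 2770, 3630 and 2283. Arcn1, the delta subunit, read 4614, 8993 and 6303 by its brightest MOE430A probe set. Sample 4 was thus highest for all 4 of these genes by the probe sets given. A second Arcn1 probe set on MOE430A, not detected, read 934, 858 and 1692, with sample 4 lowest. On MOE430B a detected Arcn1 probe set read 12333, 11252 and 7348, with sample 1 highest.

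Copb2, the beta-prime subunit, had 2 detected probe sets. They read 3898, 2921 and 4054 (1456175_a_at) and 2176, 4169 and 2937 (1452102_at). Sample 4 was the lowest by the first and the highest by the second, so the gene gave no common order of the samples.

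Copz2 varied most of all 43 transport probe sets above the mean limit, those whose mean log2 signal exceeded the mean log2 limit of the 3 arrays. It encodes 1 of 2 zeta subunits and its window is printed above. It read 8231, 7673 and 2059 in samples 1, 4 and 5, with a mean of 5987 ± 3414 (SD, n = 3). Sample 5 was far below the others, which lay close together. As log2 deviations, the log2 signal of 1 sample minus the mean log2 of the other 2, the values were 1.05, 0.90 and -1.95. The range from lowest to highest was 4.00-fold. Only this 1 probe set measured the gene. In bulk RNA, fewer cells expressing a gene and less of its RNA per cell cannot be told apart.

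The paralogue Copz1 did not share this pattern. It read 1714, 1662 and 2395, with sample 5 highest and deviations of -0.22, -0.29 and 0.51. Its other probe set, on MOE430B, read 413, 938 and 736 and was under the limit on each array.

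Copg1, the gamma subunit, was split between its probe sets. By 1416017_at it read 3279, 2623 and 1082 on MOE430A, lowest in sample 5 with a deviation of -1.44. By 1415670_at it read 4359, 6810 and 4465 on the same arrays, with -0.29 in sample 5. That probe set lies on both designs, and on MOE430B it read 14579, 32005 and 16942, with -0.35 in sample 5. Sample 4 was highest by 1415670_at on both designs, so the low value of sample 5 was seen by 1 of the 2 detected probe sets. A further probe set, 1429575_at on MOE430B, was under the limit on each array. It read 265, 164 and 108, lowest in sample 5 with a deviation of -0.95.

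**Figure D2:**
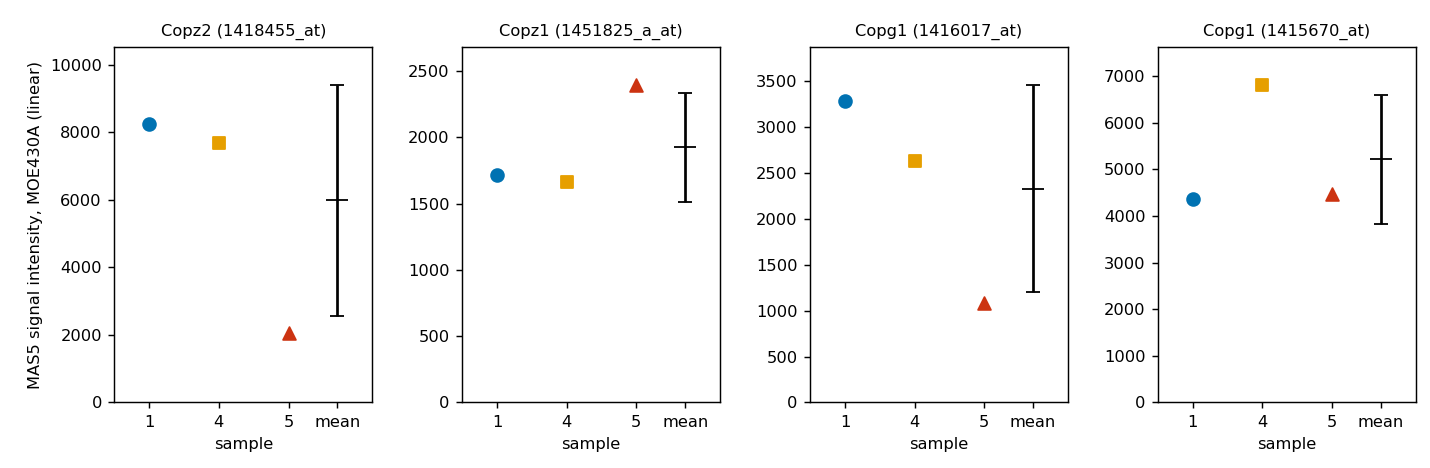
Signal on MOE430A (arbitrary units, linear axis from 0, a scale of its own in each panel) of the probe sets of Copz2, Copz1 and Copg1 in samples 1, 4 and 5, with the mean and SD (n = 3) at the right. Sample 5 is lowest for Copz2 (2059) and for 1416017_at of Copg1 (1082) and highest for Copz1 (2395).

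Arf and Rab proteins are small GTPases that act as switches, Arf1 by recruiting COPI and Rab proteins by marking membranes for tethers. All 12 Arf and Rab probe sets above the mean limit on MOE430A, from 6 genes, read higher in sample 5 than the mean of the others, with a median deviation of 0.33 (0.20 without sample 1, 0.46 without sample 4). Over all 5993 such probe sets 50.7% lay below 0 in sample 5. In sample 1, 11 of the 12 lay below 0, against 50.5% of all. This grouping was chosen after its values were seen. The pattern is small, and on MOE430B 1 of its 2 detected probe sets ran the other way.

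Arf1 read 17556, 28895 and 27567 by its brightest probe set and 1727, 2361 and 3233 by the next. Sample 1 was lowest by both. Arf4, which acts at the Golgi with Arf1, read 3839, 4553 and 7250, highest in sample 5 with a deviation of 0.79. Its second detected probe set read 1934, 2115 and 2324. Arf5 read 283, 130 and 390 and was under the limit on every array.

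Arl1 helps to bring golgins to the far side of the Golgi. It read 4202, 4107 and 4657 on MOE430A, highest in sample 5. On MOE430B another probe set read 145159, 150847 and 103402, lowest in sample 5 with a deviation of -0.52, so the designs disagreed for this gene.

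Rab1a, which serves traffic from the endoplasmic reticulum to the Golgi, read 18245, 23286 and 23795, with sample 1 lowest. A second probe set read 2368, 1331 and 2441, with sample 4 lowest, at a deviation of -0.85 and just under its limit. Rab2a, also an early Golgi Rab, read 12447, 15416 and 18041, 3940, 4933 and 4453, and 1905, 3949 and 3326 by its 3 detected probe sets. Sample 1 was lowest by each of them.

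Rab6a, which acts in return from the Golgi to the endoplasmic reticulum, read 1561, 1868 and 2873 and 1936, 1787 and 2409 on MOE430A. On MOE430B it read 8445, 7688 and 10821. Sample 5 was highest by all 3 probe sets, with deviations of 0.75, 0.37 and 0.43.

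SNARE proteins fuse the vesicle with its target. Stx5a, a SNARE of the early Golgi, read 9347, 9061 and 5848, lowest in sample 5 with a deviation of -0.65. Sec22b, a vesicle SNARE, read 2570, 3430 and 2815 by 1449063_at and 1562, 1517 and 1299 by 1415766_at on MOE430A. Its values lay within 1.33-fold and 1.20-fold. Bet1 was not detected, with 1176, 894 and 933 by its brighter probe set, each under the limit of its array.

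Cargo receptors pick proteins for transport or return them. Kdelr1 and Kdelr2 encode receptors that return escaped chaperones with a KDEL ending. Kdelr1 read 5651, 4595 and 3404, lowest in sample 5. Kdelr2 read 13898, 9808 and 8483 by 1417204_at and 2373, 3323 and 3758 by 1417205_at. Sample 5 was the lowest by the first and the highest by the second. Kdelr3 read 1307, 1361 and 773, each under the limit of its array, and was not detected.

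Lman1, a lectin that carries glycoproteins out of the endoplasmic reticulum, read 15145, 13083 and 12028 by its brightest probe set. Its other detected probe sets read 2957, 2446 and 2546, and 1448, 1568 and 1571. No sample stood apart by more than 0.27 on the log2 scale for any of the 3. Tmed10, a member of the p24 family of coat-binding cargo receptors, read 5431, 3694 and 4101 with sample 1 highest. Its partner Tmed2 had 1 probe set naming it alone, on MOE430B, which read 875, 1448 and 1161 and was above the limit on 1 of 3 arrays.

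The Golgi matrix proteins hold the stack together and tether vesicles. Golga2, the golgin GM130, read 4265, 3466 and 2477, lowest in sample 5. Gorasp2, a stacking protein, read 1656, 2343 and 2735, lowest in sample 1. Golgb1, the giant golgin, read 10116, 8150 and 10243 on MOE430B by its detected probe set, highest in sample 5. Another, 1433135_at, above the limit on 2 of 3 arrays, read 2376, 2316 and 1384, lowest in sample 5 with a deviation of -0.76. Golga4, a golgin of the far side, read 1235, 1785 and 2958, with sample 5 highest at a deviation of 0.99. It was above the limit on 2 of 3 arrays. No common order of the samples joined the 4 genes.

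Few of the transport probe sets differed by more than 2-fold between the samples. Over the 43 probe sets above the mean limit the median deviation was -0.19 in sample 1, 0.09 in sample 4 and 0.01 in sample 5, against -0.0056, 0.03 and -0.01 over all 5993. The sign in sample 5 is not settled, with -0.12 without sample 1 and 0.15 without sample 4. More than 2-fold lower in sample 1 were 0 of 43, against 8.11% of all, and more than 2-fold higher 1 of 43, Copz2, against 6.32%. In sample 4, 0 of 43 were lower, against 2.72%, and 0 of 43 higher, against 3%. In sample 5, 2 of 43 were lower, Copz2 and Copg1, against 8.03%, and 0 of 43 higher, against 8.76%.

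The highest sample was over 2-fold above the lowest for 4 of the 43 (9.30%), against 31% of all 5993. These were the probe sets of Copz2, Copg1 (1416017_at), Rab2a (1418622_at) and Golga4 (1417674_s_at). The median range was 1.57-fold, against 1.65-fold over all. Among probe sets brighter than the members' median level it was 1 of 21 members (4.76%), against 32.1% of all, and among those at or below it 3 of 22 (13.6%), against 30.2%. Without a filter on low values 11 of the 63 had such a range, and with the brightest probe set of each gene 2 had. The count was 1 without sample 5, 2 without sample 1 and 3 without sample 4. A range over 2 samples cannot exceed that over 3, and no share over all probe sets is given for these settings.

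**Figure D3:**
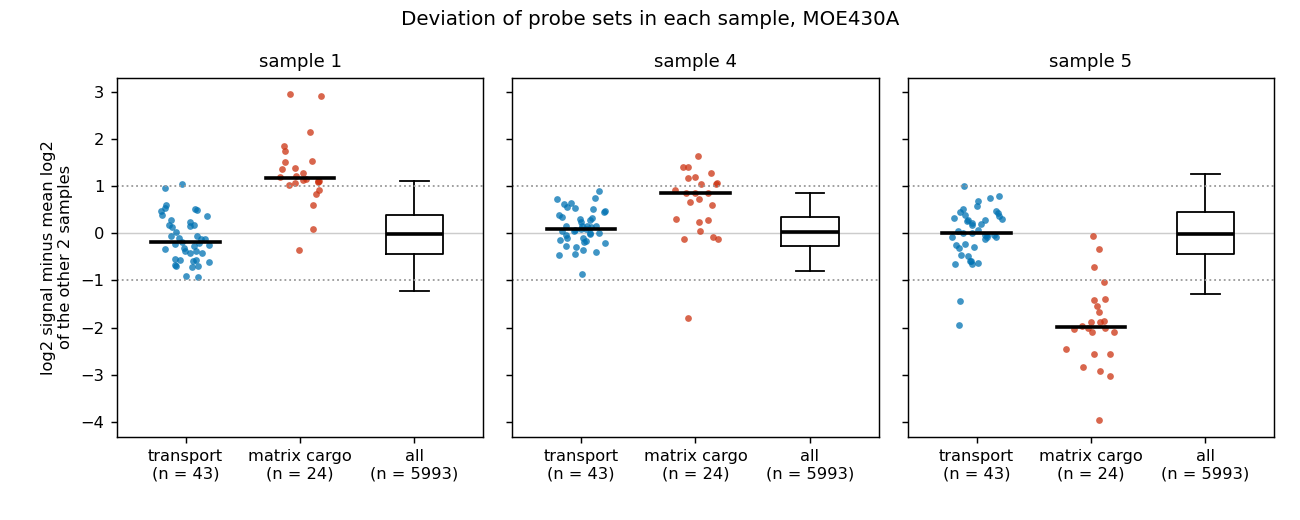
Log2 deviation of each sample from the mean of the other 2 on MOE430A, for the 43 transport probe sets, the 24 of secreted matrix proteins and all 5993 above the mean limit. Points are probe sets, black bars medians, boxes quartiles with whiskers at the 5th and 95th percentiles, and dotted lines mark 2-fold. The transport medians stay near 0 in every sample (-0.19, 0.09 and 0.01), and the matrix median is -1.99 in sample 5.

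The probe sets common to both designs gave a measure of how far the deviations of 1 sample differ between the designs. Each deviation draws on all arrays of its design, so the measure is not of 2 arrays alone. Over 83 of them above the mean limits, the median difference in deviation, MOE430A minus MOE430B, was 0.35, -0.15 and -0.23 in samples 1, 4 and 5. This offset was not removed. The 95th percentile of the absolute difference was 0.98 in sample 1, 0.76 in sample 4 and 0.75 in sample 5. Past this were 1 of 43 transport probe sets in sample 1 (Copz2), against 15.1% of all 5993, and 2 of 43 in sample 4 (Copz2 and Rab1a), against 12.3%. In sample 5 there were 5 of 43, those of Copg1, Copz2, Arf4, Rab6a and Golga4, against 28.1%.

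Of these common probe sets 4 belong to transport genes. Copa read 26269, 35075 and 31016 on MOE430B, with deviations of -0.33, 0.30 and 0.03 there and -0.11, 0.15 and -0.04 on MOE430A. Sar1a read 85854, 103825 and 81163 on MOE430B, lowest in sample 5 on both designs. Sec22b read 4689, 6932 and 5233 on MOE430B, with -0.36 in sample 1 there and 0.15 on MOE430A. Copg1 1415670_at had its highest value in sample 4 on both. The direction in sample 5 was shared between the designs for Copg1, Sar1a and Sec22b and not for Copa. Over all 83 common probe sets above the mean limits it was shared by 57.

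**Figure D4:**
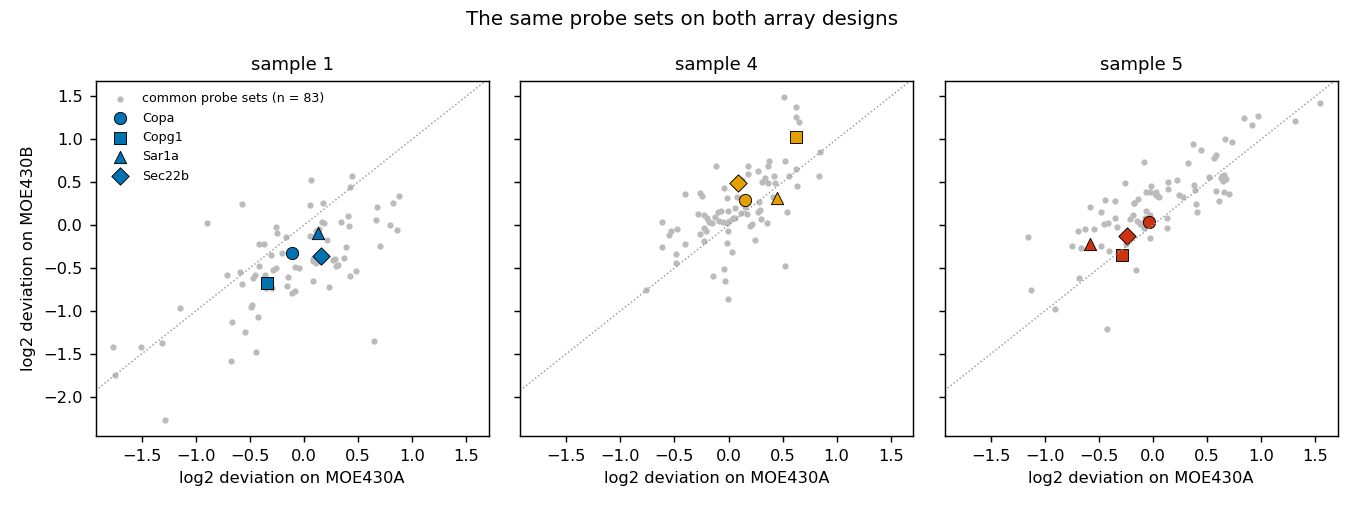
Log2 deviation of each sample on MOE430B (vertical) against MOE430A (horizontal) for the 83 probe sets present on both designs and above the mean limits, with the 4 of transport genes drawn larger and the dotted line at equal values. The Copg1 probe set lies at 0.63 on MOE430A and 1.03 on MOE430B in sample 4, and the 4 genes stay within 0.58 of 0 in sample 5.

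Probe sets of 1 gene did not always agree. No share over all genes is given for the counts that follow, so they describe these genes alone. Of 10 transport genes with at least 2 probe sets above the mean limit on MOE430A, all probe sets of a gene had the same sign of deviation for 4 genes in sample 1, 5 in sample 4 and 7 in sample 5. Probe sets of Copb2, Copg1, Rab1a and Kdelr2 differed by more than 1 on the log2 scale in at least 1 sample. Arcn1 also differed between the designs, with -0.71, 0.74 and -0.03 on MOE430A and 0.44, 0.24 and -0.68 on MOE430B.

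The cargo of this route differed more between the samples than the transport genes did. Of 13 measured genes of secreted matrix proteins 12 were detected, against 33.5% of all genes. Of their 24 probe sets 21 were more than 2-fold lower in sample 5, against 8.03% of all 5993. Their median deviation was 1.17 in sample 1, 0.85 in sample 4 and -1.99 in sample 5. Col1a1, a chain of type I collagen, read 31161, 15904 and 7621. Col1a2, the other chain, read 183221, 161044 and 43699. Col3a1, the chain of type III collagen, read 58322, 24663 and 6976, so that sample 5 was lowest for all 3. The fibroblast markers, 4 of which are cargo genes too, had a median deviation of -1.89 in sample 5. Of their 16 probe sets 9 were more than 2-fold lower there, against 8.03% of all. Markers that are no matrix cargo were among these, with -1.92 for S100a4, -1.97 for Pdgfrb and -1.85 for Thy1, while Vim had -0.24 to 0.34 and Pdgfra 0.58. Their part in the values of Copz2 and the cargo was not tested. Copz2, at -1.95, had the lowest sample 5 value of the transport probe sets above the mean limit on MOE430A. It therefore lay nearest to the matrix median of -1.99, which was lower still, and a link between them was not tested.

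Members with ACGTGGC in their window and above the limit (12 probe sets of 10 genes) had median deviations of 0.08, 0.42 and -0.30 in samples 1, 4 and 5. Those in the table without it (21 probe sets of 16 genes) had -0.19, -0.0031 and 0.20. In sample 5 the ranges were -1.95 to 0.68 and -0.63 to 0.79 and overlapped. Tfe3, the mouse gene of the factor named above, was looked up after these values were seen. It read 3906, 6679 and 6167 on MOE430B and was detected, with sample 1 lowest.

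Further genes of the pathway, in 6 lists, were detected in 75 of 101 measured genes (74.3%), against 33.5% of all. Of the exit site and COPII regulators 9 of 12 genes were detected, of the Arf regulators and further COPI genes 12 of 13, of the tethers 16 of 23, of further SNAREs 10 of 18, of further cargo receptors 16 of 17 and of further golgins and Rabs 12 of 18. Over their 86 probe sets above the mean limit on MOE430A, 1 was more than 2-fold lower in sample 1, against 8.11% of all, and 3 more than 2-fold higher, against 6.32%. In sample 4 there were 0 of each, against 2.72% lower and 3% higher. In sample 5 there were 5 lower, against 8.03%, and 3 higher, against 8.76%.

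At the exit sites, Preb, the exchange factor of Sar1, read 7590, 7009 and 7099 by its brightest probe set. Sec16a, a scaffold of the sites, read 4783, 3617 and 3838 by 1426815_s_at and 1982, 3577 and 2683 by 1426814_at, with sample 1 highest by the first and lowest by the second. Mia3, which loads collagen into COPII carriers, read 4113, 4410 and 3003 on MOE430B, lowest in sample 5. Xbp1, a transcription factor of the unfolded protein response, read 1598, 1853 and 3782 by 1420886_a_at, highest in sample 5 with a deviation of 1.14. Its brighter detected probe set 1437223_s_at read 9714, 5893 and 10228, with samples 1 and 5 close together and a deviation of 0.43 in sample 5.

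Gbf1, the exchange factor of Arf1 at the early Golgi, read 1838, 1731 and 800 by 1415757_at on MOE430A, lowest in sample 5, where it was under the limit. The same probe set read 1581, 5878 and 2777 on MOE430B, lowest in sample 1. The brightest probe set, 1415709_s_at on MOE430B, read 6409, 3320 and 5644, lowest in sample 4, so the arrays gave no common order. Arfgap1, which turns Arf1 off, read 3213, 2123 and 2322. Copg2, the paralogue of Copg1, read 1464, 1837 and 1314 with sample 4 highest, as was Copg1 1415670_at. Arf3 read 1663, 3875 and 3560 by 1423973_a_at, with sample 1 lowest at a deviation of -1.16. Its brighter detected probe set 1437331_a_at read 4052, 2718 and 3992, with sample 1 highest, so the gene gave no common order of the samples.

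Among tethers, Uso1, the long tether p115, was not detected with 639, 788 and 1082. Trappc3 read 2271, 3006 and 2823. Cog1 read 7403, 4915 and 3571 by a probe set that can match several transcripts, the 1 detected of its 5. Among SNARE factors, Ykt6 read 3705, 4794 and 3880. Gosr2 read 6439, 4838 and 4252 by a probe set that can match several transcripts, the 1 detected of its 2. Nsf, the ATPase that takes SNARE complexes apart, read 1039, 2131 and 1253 and was above the limit on 2 of 3 arrays. None of the 6 probe sets given here had a deviation past 2-fold. A second Nsf probe set, 1422456_at, read 370, 1495 and 1568 and was also above the limit on 2 of 3 arrays, with sample 1 lower by 2.05 on the log2 scale.

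Among further receptors, Tmed9 of the p24 family read 26430, 19689 and 21942 and Lman2 read 2589, 2045 and 1662. Surf4, a receptor of soluble cargo, read 3660, 5171 and 3809 by its brightest probe set, highest in sample 4. By its 3 other detected probe sets sample 5 was highest, with deviations of 0.67, 0.58 and 0.57. Yif1a, a Golgi membrane protein that acts in early transport, read 45890, 34879 and 16892 by its brightest probe set, with a deviation of -1.24 in sample 5, and its 2 other detected probe sets had -0.39 and -0.69. Ergic3, a receptor of the compartment between the endoplasmic reticulum and the Golgi, read 8079, 3613 and 2323 by 1 probe set and 2692, 2444 and 1094 by another on MOE430A, with -1.22 and -1.23 in sample 5. On MOE430B a further probe set read 25751, 25103 and 20808, with -0.29. Sample 5 was lowest by each of these probe sets of Yif1a and Ergic3. Of the 23 probe sets of this receptor list above the mean limit on MOE430A, 3 were more than 2-fold lower in sample 5, against 8.03% of all. More than 2-fold higher there was 1, against 8.76%, which the rule for naming left out. Among golgins and Rabs, Golga3 read 15406, 15142 and 10820 on MOE430B, Rab1b read 4001, 3217 and 2923 and Gorasp1 was not detected. Rab2b read 6314, 4128 and 2241, lowest in sample 5 by its 1 detected probe set, whereas sample 1 was lowest for its paralogue Rab2a. Rab10 read 789, 1091 and 2089 by 1422664_at, above the limit in sample 5 alone, with a deviation of 1.17 there. Its 2 detected and brighter probe sets read 3303, 2780 and 3603 and 9895, 10749 and 13336, with 0.25 and 0.37 in sample 5.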

How the data were processed

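Total RNA of 3 samples was labelled with biotin, and the deposited values are 1 signal intensity per probe set and array, made by the authors in MAS5 (named in the submitters' processing notes, with no version in the sources used here). The intensities are linear and scaled array by array to a 2% trimmed mean of about 1500, so the designs were kept apart. The deposited run settings of each array, per the file headers, were read only for design and station. The number of arrays limits the precision.

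Probe sets were assigned by the platform annotation. Of 115 background genes 106 were measured, and 4 of them were themselves called detected. Signals were set to at least 1 before log2. The computation of deviations was checked on simulated arrays with known changes, which is no test of the samples. Computation used Python 3.11.15, pandas 2.3.3 and numpy 2.4.6.

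The members and lists were chosen with earlier results of these data known. Named were all 38 members, the first 3 genes of every pathway list and of the matrix list, and up to 3 genes per pathway list past 2-fold, in any sample. The marker lists were named only in part and not by this rule. Any other gene was picked with its values in view. As alternatives, the background limit was moved to the 90th or 99th percentile, and detection on 2 of 3 arrays, quantile normalisation, pseudocounts of 16 and 64, filters, other choices of probe sets and the omission of each sample were tried.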

Additional observations from a re-analysis of the deposited data

Results flagged for a closer look

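Probe sets that name a transport gene together with a second gene were outside the counts above, and 8 of 10 on MOE430A lay above the limit on 3 of 3 arrays. In all, 691 probe sets on MOE430A named several genes. The share of these above the limit is not given, so the 8 of 10 cannot be set against it. For Tmed2, shared with Gm10698, the mean signals were 3691 ± 499, 17737 ± 3806, 20817 ± 4057 and 24679 ± 2706 (SD, n = 3). For Tmed10, shared with the pseudogene Tmed10-ps, they were 4062 ± 987, 4390.0 ± 1821, 11726 ± 3805 and 6979 ± 2513. Sample 4 was lowest by 3 of the 4 Tmed10 probe sets, as it was by the probe set naming Tmed10 alone. Transcripts of the 2 genes of a probe set cannot be told apart in these values.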

How the results depend on the processing

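No paired analysis was possible because there is 1 group and no test. Of 90 alternatives, 82 kept the value and 8 moved it. Kept means within 1.5 times for a count, past 2-fold on the same side for Copz2 and the matrix genes, and within 0.097 on the log2 scale for the other medians, which is the SD between samples of the transport genes' median. The count of transport probe sets with a range over 2-fold, 4 as reported, was 11 without a filter on low values, 2 with the brightest probe set per gene and 1 to 3 with each sample left out. It was 1 without sample 5, 2 without sample 1 and 3 without sample 4. The median of the Arf and Rab probe sets in sample 5, 0.33 as reported, was 0.20 to 0.46 when sample 1 or sample 4 was left out of the others. The median of all transport probe sets in sample 5, 0.01 as reported, was -0.12 without sample 1 and 0.15 without sample 4, so its sign is not settled. It was -0.04 after quantile normalisation and -0.03 with the brightest probe set per gene. The number of detected genes was 28 to 33, and 23 when most of a gene's probe sets had to be detected. No share of all genes is given for these settings. Copz2 in sample 5 stayed between -2.00 and -1.90 and the matrix genes between -2.04 and -1.84. Alternatives for the range, the Arf and Rab probe sets, Copz2, the matrix genes and MOE430A alone were chosen after seeing the data. The cause of the moved values was not tested. Probe sets near the limit carry little signal over background, and Kdelr3 and Golga4 lay there.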
